A study of Mus musculus with 8 samples.

Results

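The 2'-5' oligoadenylate synthetase (OAS) genes of the mouse were examined in microglia, the macrophages that reside in brain, spinal cord and optic nerve. The members were Oas1a, Oas1b, Oas1c, Oas1g, Oas2, Oas3, Oasl1 and Oasl2, matched by gene symbol, and all 8 were found among the 37447 genes of the deposited table. Microglia had been enriched on a Percoll gradient and flow sorted from the optic nerves of C57BL/6 mice at 3 months of age. FFC mice carried Nf1 flox/flox alleles and GFAP-Cre, and FF mice carried Nf1 flox/flox alleles without Cre. The GFAP promoter is active in astrocytes, so Cre is expected there and not in the sorted cells. There were 4 libraries per genotype, FFC 1 to FFC 4 and FF 1 to FF 4, of which numbers 1 and 4 came from females and numbers 2 and 3 from males. The labels describe the 4 as biological replicates and do not say whether a library is 1 animal or several, so p-values measure the spread between these libraries only.

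OAS proteins detect double-stranded RNA and, where catalytically active, join ATP into short 2'-5' linked oligoadenylates (2-5A). 2-5A acts as a second messenger that leads to the cleavage of single-stranded RNA in the cell, which limits viral replication. The genes are transcribed at a low level in resting cells and are induced by interferons through the transcription factor complex ISGF3, which holds Stat2 and Irf9. In the mouse, Oas1a and Oas1g encode active synthetases with a single OAS domain, while Oas1b and Oas1c encode proteins without synthetase activity. Oas2 and Oas3 encode proteins with several OAS domains. Oasl1 and Oasl2 carry ubiquitin-like domains, and of these Oasl2 has kept its synthetase activity.

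The data show 4 abundant OAS transcripts, Oasl2, Oas1a, Oas2 and Oasl1, and a wide spread between libraries of the same genotype. The mean log2(FPKM + 1), where FPKM is fragments per transcript length scaled to the mapped fragments, was higher in FFC than in FF microglia for 8 of 8 members, by 0.08 to 1.14. One of these directions, that of Oasl2, turned under other scalings of the libraries. That of Oas1b turned with another pseudocount and when some libraries were left out, to -0.59 without FFC 3. The values of the genotypes overlapped for every member, and 0 of 8 members passed the test (limma, Benjamini-Hochberg adjustment over 17753 genes, smallest adjusted p = 0.759). Over all tested genes 0 passed as well (0% called, smallest adjusted p = 0.382). Before adjustment, p was under 0.05 for 0 of 8 members and for 1146 of 17753 genes (6.46%). Fewer cells of a type and less RNA per cell cannot be told apart in sorted bulk samples such as these.

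Several facts of the libraries stand beside every value. Without read counts in the deposited table, sequencing depth is unknown. Summed FPKM lay between 525184 and 651231 in FFC and between 367760 and 700291 in FF libraries. Pairwise Spearman correlations of all 8 libraries over the tested genes were between 0.375 and 0.659, and the medians of FF 2 (0.398) and FF 4 (0.464) were the lowest. Nf1 had 56.2, 47.8, 47.7 and 98.3 FPKM in FFC 1 to FFC 4, against 27.4, 60.8, 65.2 and 25.5 FPKM in FF 1 to FF 4 (log2 difference 0.53 ± 0.60 SE, limma adjusted p = 0.802). The Cre acts outside the sorted cells, so Nf1 checks no label here. The 8 listed microglial markers, among them P2ry12 and Tmem119, were measured in all libraries and summed to 2610 to 4832 FPKM in FFC and 1464 to 4284 FPKM in FF. Of the 7 listed astrocyte markers, Gfap did not exceed 1.03 FPKM in any library. Slc1a3 had 85.8 to 182 FPKM in FFC and 49.7 to 192 FPKM in FF, and Clu had 0.0124 to 3.45 FPKM in FFC and 23.4 to 127 FPKM in FF, without overlap. The 7 together summed to 91.6 to 188 FPKM in FFC and 114 to 320 FPKM in FF, with Clu included. Of the 5 that were tested, 3 had a higher mean in FFC and 2 a lower mean. Their median log2 difference was 0.18, beside 0.19 over all tested genes, and Clu was the 1 gene of them without overlap.

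All 8 genes lie on chromosome 5, in a pair of clusters. In mm9, the build of the deposited table, Oasl2 (ENSMUSG00000029561, 115346943 to 115362243, plus strand) and Oasl1 (ENSMUSG00000041827, 115373249 to 115387924, plus strand) are neighbours. The other cluster runs through Oas2 (ENSMUSG00000032690, 121180342 to 121199862, minus strand), Oas3 (ENSMUSG00000032661, 121203107 to 121227670, minus strand), Oas1c (ENSMUSG00000001166, 121250102 to 121262523, minus strand), Oas1b (ENSMUSG00000029605, 121262644 to 121274186, plus strand), Oas1g (ENSMUSG00000066861, 121326151 to 121337622, minus strand) and Oas1a (ENSMUSG00000052776, 121346265 to 121357536, minus strand). GENCODE M21 calls Oas1b a polymorphic pseudogene and the other 7 protein-coding, and C57BL/6, like many other laboratory strains, is known to carry a truncated Oas1b allele. Oas1a and Oas1g are close copies. Of the 1836 distinct 50-base words in the GENCODE transcript of Oas1a, 57.6% also occur in transcripts of Oas1g, and 45.2% of the words of Oas1g occur in Oas1a. The sources used here do not say how reads that match both were allotted, so the split between these copies is uncertain. Oas1b shared 1.17% of its words with another member, and the remaining 5 shared 0.

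The start regions of the genes are shown because interferon acts on the family there. RefSeq promoters (GRCm38.p6, a later build than that of the deposited table) were held for 6 of the 8 members. The motif searched for is the core of the interferon-stimulated response element, GAAA, then 2 bases of any kind, then GAAA, on both strands, with overlapping matches counted. It was found in the windows of 4 of the 6 members, against 1131 of 32851 promoters (3.44%) over the same 300 bases, from 250 before to 50 after the start. For these 4 the 150 bases before the start are given 5′ to 3′ on the strand of the gene, with the bases of motif matches in capitals.
Oas1a: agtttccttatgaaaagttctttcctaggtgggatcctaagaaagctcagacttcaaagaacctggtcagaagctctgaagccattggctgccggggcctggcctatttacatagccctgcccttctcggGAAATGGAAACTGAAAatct
Oas1g: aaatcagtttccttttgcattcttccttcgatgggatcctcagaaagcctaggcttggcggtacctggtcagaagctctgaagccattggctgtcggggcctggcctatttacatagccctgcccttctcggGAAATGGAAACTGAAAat
Oas1c: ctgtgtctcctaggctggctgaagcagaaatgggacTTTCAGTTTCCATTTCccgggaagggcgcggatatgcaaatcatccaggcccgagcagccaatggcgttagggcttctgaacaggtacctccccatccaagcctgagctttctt
Oas3: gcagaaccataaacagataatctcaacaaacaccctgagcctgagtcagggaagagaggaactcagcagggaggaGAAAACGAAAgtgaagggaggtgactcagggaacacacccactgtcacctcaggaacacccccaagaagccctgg
Oas1a lies at chr5:120907526-120907675 (minus strand), Oas1g at chr5:120887614-120887763 (minus strand), Oas1c at chr5:120812515-120812664 (minus strand) and Oas3 at chr5:120777660-120777809 (minus strand). In Oas1a and Oas1g a pair of matches overlapping by 4 bases sits just before the start, at -20 to -5 and at -18 to -3, counted from the first transcribed base. The 150-base stretches of these copies were identical at 129 of 145 aligned bases (89.0%, with 10 gapped bases). In Oas1c an overlapping pair lies on the other strand at -114 to -99, where it reads with the same bases as the pairs of Oas1a and Oas1g. That is the strand of Oas1b, whose start in mm9 lies close to that of Oas1c. The pair therefore cannot be assigned to Oas1c alone. No promoter of Oas1b was held, so the place of the pair relative to the Oas1b start was not measured. Oas3 has a single match at -75 to -66. The windows of Oasl1 and Oasl2 held no match to these letters. A match is a description of the sequence only.

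**Figure D1:**
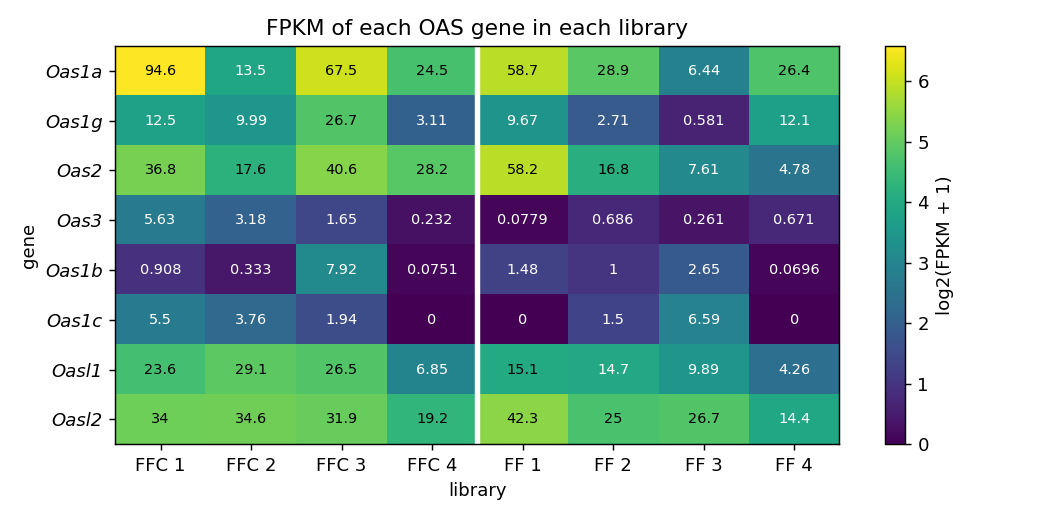
FPKM of each OAS gene (rows) in each library (columns, FFC left of FF), with the colour giving log2(FPKM + 1). Oas1a, Oas2, Oasl1 and Oasl2 are bright in most libraries, Oas1b, Oas1c and Oas3 are dark, and no gene separates the 4 FFC from the 4 FF libraries.

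By the median over the 8 libraries, in FPKM, which is per transcript length, Oasl2 was the most abundant member at 29.3 (range 14.4 to 42.3), followed by Oas1a at 27.6 (6.44 to 94.6), Oas2 at 22.9 (4.78 to 58.2) and Oasl1 at 14.9 (4.26 to 29.1). Oas1g followed at 9.83 FPKM (0.581 to 26.7). Oas1c, Oas1b and Oas3 had medians of 1.72, 0.954 and 0.679 FPKM. Oasl2 was among the 3 highest members in 8 of 8 libraries, while Oas1a was the highest in 5. Neighbours in this order were not cleanly apart. Oasl2 exceeded Oas1a in 2 of 8 libraries, Oas1a exceeded Oas2 in 5, Oas2 exceeded Oasl1 in 6, and Oasl1 exceeded Oas1g in 6. Oas1g exceeded Oas1c in 7 of 8 libraries, which was the clearest step. Oas1c against Oas1b, and Oas1b against Oas3, were each higher in 4 of 8. The 4 most abundant genes together held 88.5%, 84.6%, 81.3% and 95.8% of the summed OAS FPKM in FFC 1 to FFC 4, and 94.0%, 93.5%, 83.4% and 79.5% in FF 1 to FF 4.

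Oas1a, an active single-domain synthetase, had 94.6, 13.5, 67.5 and 24.5 FPKM in FFC 1 to FFC 4, against 58.7, 28.9, 6.44 and 26.4 FPKM in FF 1 to FF 4. FFC 1 and FFC 3 were the highest libraries, but FFC 2 and FFC 4 each lay below 3 of the FF libraries. Its means were 50.0 ± 37.8 FPKM in FFC and 30.1 ± 21.6 in FF (SD, n = 4 each, here and in all such values), and the log2 difference was 0.68 ± 0.82 (SE, 95% interval -1.09 to 2.45, limma adjusted p = 0.814). It was 0.11 without FF 3 and 1.16 without FFC 2. Oas1g, its close copy, had 12.5, 9.99, 26.7 and 3.11 FPKM in FFC 1 to FFC 4, against 9.67, 2.71, 0.581 and 12.1 FPKM in FF 1 to FF 4. FFC libraries exceeded FF libraries in 13 of the 16 pairs, and the exceptions came from FFC 2 and FFC 4. The log2 difference was 1.09 ± 0.91 (SE, 95% interval -0.88 to 3.06, limma adjusted p = 0.759), and it was 0.51 without FF 3. Oas1a was above Oas1g in every library, by 7.56, 1.35, 2.53 and 7.88 times in FFC 1 to FFC 4 and by 6.07, 10.7, 11.1 and 2.19 times in FF 1 to FF 4. The uncertain split of reads between these copies bears directly on that ratio.

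Oas2, which encodes a synthetase with a pair of OAS domains, had 36.8, 17.6, 40.6 and 28.2 FPKM in FFC 1 to FFC 4, against 58.2, 16.8, 7.61 and 4.78 FPKM in FF 1 to FF 4. The FFC libraries lay close together, at 30.8 ± 10.2 FPKM, while the FF libraries ranged widely, at 21.9 ± 24.8 FPKM, and FF 1 was the highest of all 8. The ratio of the highest to the lowest library was 2.31 in FFC and 12.2 in FF. The log2 difference was 1.00 ± 0.79 (SE, 95% interval -0.70 to 2.71, limma adjusted p = 0.759). It was 1.66 without FF 1 and 0.43 without FF 2 and FF 4, and passed in neither case. Oas3 encodes the largest OAS protein, and its human counterpart is a main source of 2-5A in cultured cells. It had 5.63, 3.18, 1.65 and 0.232 FPKM in FFC 1 to FFC 4, against 0.0779, 0.686, 0.261 and 0.671 FPKM in FF 1 to FF 4. FFC 1 to FFC 3 were above all FF libraries, and FFC 4 was among the FF values. The means were 2.67 ± 2.31 FPKM in FFC and 0.424 ± 0.303 in FF, and the log2 difference of 1.14 ± 0.76 was the largest of the members (SE, 95% interval -0.51 to 2.79, limma adjusted p = 0.759). It depended on the pseudocount, at 2.03 with 0.1 and 0.45 with 5 in place of 1.

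Oas1b, known for the flavivirus resistance that its full-length allele gives to some mouse strains, had 0.908, 0.333, 7.92 and 0.0751 FPKM in FFC 1 to FFC 4, against 1.48, 1.00, 2.65 and 0.0696 FPKM in FF 1 to FF 4. Replicate 3 was the highest and replicate 4 the lowest library in both genotypes. The log2 difference was 0.08 ± 0.86 (SE, 95% interval -1.77 to 1.93, limma adjusted p = 0.984), and was -0.59 without FFC 3 and -0.24 without FF 4. Oas1c, which encodes a protein without synthetase activity, had 5.50, 3.76 and 1.94 FPKM in FFC 1 to FFC 3 and was listed at 0 in FFC 4, against 1.503 and 6.59 FPKM in FF 2 and FF 3 and a listing at 0 in FF 1 and FF 4. A listing at 0 can be a failed estimate. The log2 difference was 0.57 ± 0.93 (SE, 95% interval -1.44 to 2.58, limma adjusted p = 0.875). Over the alternatives it lay between 0.17 (without FF 2 and FF 4) and 1.34 (pseudocount 0.1), and never passed. It was 0.21 without FFC 1, FF 1 or FF 4, 0.36 without FFC 2, 1.11 without FFC 4 and 1.19 without FF 3. Oas1b and Oas1c run on opposite strands away from each other. Their starts lie close together, at 121262644 and 121262523, and the genes do not overlap in these coordinates. The sources used here do not say whether counting used strand.

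Oasl1, which in the mouse is known to hold back translation of the interferon regulator Irf7, had 23.6, 29.1, 26.5 and 6.85 FPKM in FFC 1 to FFC 4, against 15.1, 14.7, 9.89 and 4.26 FPKM in FF 1 to FF 4. FFC 1 to FFC 3 exceeded all FF libraries, and FFC 4 exceeded FF 4 alone. The means were 21.5 ± 10.0 FPKM in FFC and 11.0 ± 5.06 in FF, with a log2 difference of 0.87 ± 0.74 (SE, 95% interval -0.72 to 2.46, limma adjusted p = 0.759). It was 0.51 without FF 4 and 1.32 with the month in the titles as a covariate, and passed in neither case. Oasl2, its active neighbour, had 34.0, 34.6, 31.9 and 19.2 FPKM in FFC 1 to FFC 4, against 42.3, 25.0, 26.7 and 14.4 FPKM in FF 1 to FF 4. It varied the least of the members, with a ratio of the highest to the lowest library of 1.81 in FFC and 2.95 in FF. The log2 difference of 0.20 ± 0.62 (SE, 95% interval -1.14 to 1.54, limma adjusted p = 0.942) was -0.02 with upper-quartile scaling of the libraries and -0.06 without FF 4. Oasl2 was 1.44, 1.19, 1.20 and 2.80 times as abundant as Oasl1 in FFC 1 to FFC 4, against 2.80, 1.71, 2.70 and 3.37 times in FF 1 to FF 4.

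**Figure D2:**
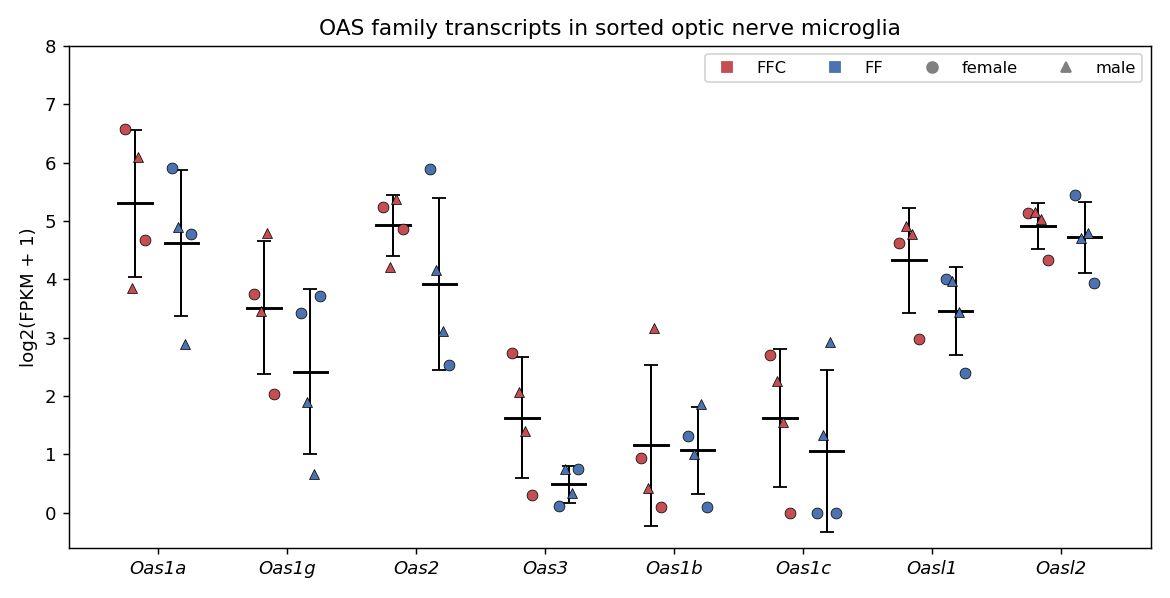
log2(FPKM + 1) of each OAS gene in the 4 FFC (red, left) and 4 FF libraries (blue, right), with circles for females and triangles for males. Bars give the mean and whiskers 1 SD. The groups overlap for all 8 genes, and the mean is higher in FFC for each. This direction turned for Oasl2 under upper-quartile scaling (-0.02) and for Oas1b without FFC 3 (-0.59).

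Over the family, the median log2 difference was 0.78, against 0.19 over all tested genes, a gap of 0.59. The mean was higher in FFC for 8 of 8 members (7 of 8 with upper-quartile or quantile scaling), against 10058 of 17753 genes (56.7%). No member had all FFC values above all FF values, as 542 genes did (3.05%). Upper-quartile scaling moved the median of all genes down by 0.16 and gave a median of 0.59 for the members beside 0.03 for all genes, with Oasl2 then at -0.02. Without scaling, 7 of 8 members lay above the median of all genes, all but Oas1b, and Oasl2 did so narrowly (0.197 against 0.185). With upper-quartile scaling Oas1b (0.06) lay above the median of all genes and Oasl2 below it. Without FFC 1 the median of the members was 0.51, beside 0.26 for all genes. The members were chosen with earlier results of these data known, so their median carries no test.

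The spread had a pattern by library. The sum over the 8 members was 214, 112, 205 and 82.1 FPKM in FFC 1 to FFC 4, against 186, 91.3, 60.7 and 62.6 FPKM in FF 1 to FF 4. FFC 1, FFC 3 and FF 1 thus carried the most OAS transcript, and FF 3, FF 4 and FFC 4 the least. Ranked gene by gene among the 8 libraries, with 1 as the highest, the mean rank was 2.5, 3.75, 2.375 and 6.375 in FFC 1 to FFC 4 and 4, 5.125, 5.375 and 6.5 in FF 1 to FF 4. FF 4 was the lowest library, or tied for it at 0, for 5 members. The make-up differed too. Oas1a made up 44.3%, 12.04%, 33.0% and 29.8% of the sum in FFC 1 to FFC 4, and 31.6%, 31.7%, 10.6% and 42.1% in FF 1 to FF 4. Where Oas1a was scarce, in FFC 2 and FF 3, Oasl2 was the largest component, at 30.9% and 44.0%.

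**Figure D3:**
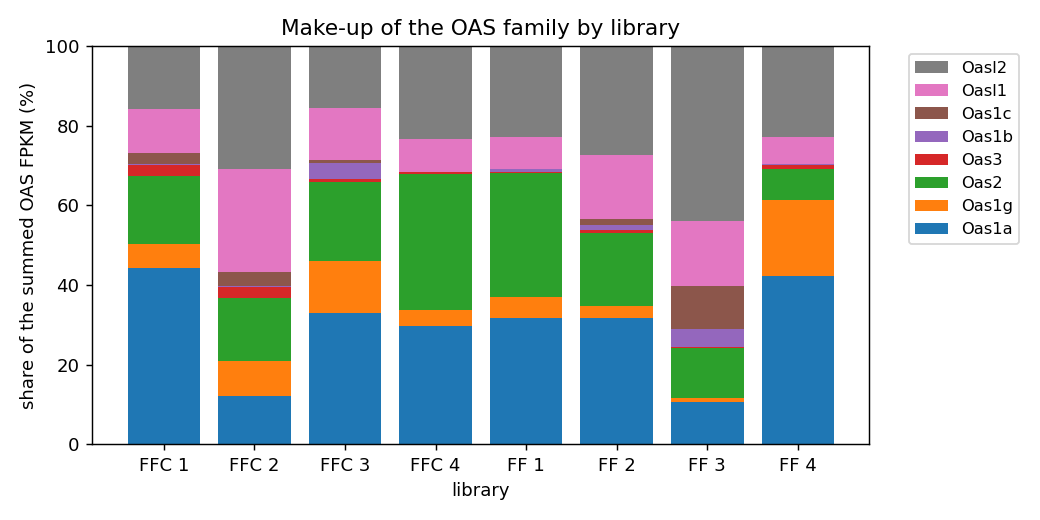
Share of each OAS gene in the summed OAS FPKM of each library (percent, FFC left of FF). Oas1a takes between 10.6% and 44.3% of the sum, and Oas1b, Oas1c and Oas3 are thin layers except in FF 3, where Oas1c reaches 10.8%.

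Within the sexes, the median difference of the members was 0.44 between the 2 FFC and 2 FF females and 1.11 between the 2 FFC and 2 FF males, beside 0.08 and 0.22 over all genes. The mean was higher in FFC for 6 of 8 members in females, the exceptions being Oas1b (-0.19) and Oas1g (-0.66). In males it was higher for 7 of 8, the exception being Oas1c (-0.22). The genotype by sex interaction was tested over all genes, and 0 of 8 members passed, as did 0 of 17753 genes (0% called, limma, smallest adjusted p = 0.104). Before adjustment, the interaction had a p under 0.05 in 0 members and 567 genes (3.19%). Oas1g had the largest interaction of the members. Its log2 difference was 2.85 in males and -0.66 in females, and the interaction was 3.51 ± 1.65 (SE, limma adjusted p = 0.9995). Both FFC males carry December in their sample titles and both FF males carry November. Genotype and that month therefore cannot be told apart in males, which bears on the interaction too.

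The sample titles carry a month, and the labels do not say what it marks. FFC 1 and FF 1 to FF 3 carry November, and FFC 2 to FFC 4 and FF 4 carry December. Month and genotype are thus partly confounded over all libraries, and fully among the males. Among the females, each genotype has a library of each month. The titles also carry a day, and read as dates they put FF 1 to FF 3 before every FFC library. FF 4 then falls between FFC 3 and FFC 4. Date and genotype therefore cannot be told apart, also within November. The median difference of the members was 1.07 within November, where FFC is the single library FFC 1, and 1.02 within December, where FF is the single library FF 4. Over all genes the medians were -0.25 and 0.57. Within each month 7 of 8 members were higher in FFC, all but Oas1b in November (-0.46) and all but Oas1g in December (-0.28). A lone library on one side leaves these without a spread.

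Genes of proteins that act in or on the 2-5A pathway were measured beside the family. Abce1, an inhibitor of the response to 2-5A that is also needed for ribosome recycling, had 7.83, 8.54, 25.4 and 39.1 FPKM in FFC 1 to FFC 4, against 44.4, 9.83, 7.20 and 6.05 FPKM in FF 1 to FF 4 (log2 difference 0.41 ± 0.83 SE, limma adjusted p = 0.900). FFC 4 and FF 1 were the highest libraries, one of each genotype. Pde12, a phosphodiesterase that degrades 2-5A, had 2.51, 1.93, 1.70 and 0.536 FPKM in FFC 1 to FFC 4, against 5.31, 0.240, 3.49 and 0.0694 FPKM in FF 1 to FF 4 (0.05 ± 0.84 SE, limma adjusted p = 0.991). The mean log2 value was higher in FFC for 2 of 2 of these genes (56.7% of all tested genes) and 0 passed. The median difference was 0.23, close to the 0.19 over all tested genes.

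Of 4 further Oas1 copies in the mouse, only Oas1d averaged 1 FPKM or more and was tested. It had 0.980, 0.0289, 3.84 and 0.654 FPKM in FFC 1 to FFC 4, against 0.0170, 2.84 and 0.242 FPKM in FF 1 to FF 3 and a listing at 0 in FF 4 (log2 difference 0.44 ± 0.78 SE, limma adjusted p = 0.886). Oas1e, Oas1f and Oas1h stayed under the filter. Their highest values were 4.12 FPKM for Oas1e in FF 4, 0.727 for Oas1f in FFC 3 and 1.34 for Oas1h in FF 2.

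Genes of the type I interferon receptor and ISGF3 pathway carry the interferon signal to the OAS promoters. Of the 7 listed here, 7 had a higher mean in FFC (56.7% of all tested genes) and 0 passed. The median difference was 0.80, beside 0.78 for the OAS genes and 0.19 for all. With upper-quartile scaling the median was 0.59, beside 0.59 for the OAS genes and 0.03 for all. Stat2, a subunit of ISGF3, had 27.4, 28.1, 50.8 and 14.9 FPKM in FFC 1 to FFC 4, against 6.46, 2.16, 15.5 and 9.83 FPKM in FF 1 to FF 4 (log2 difference 1.83 ± 0.75 SE, limma adjusted p = 0.729). FFC 4 alone lay below an FF library, FF 3. Irf9, the DNA-binding subunit, differed by 1.63 ± 0.92, and Irf7, the regulator that Oasl1 restrains, by 1.42 ± 0.94 (SE, limma adjusted p = 0.759 for both). Tyk2, a kinase bound to the interferon receptor, differed by 0.80 ± 0.79 (SE, limma adjusted p = 0.773). Beyond these 4 genes with the smallest p, Ifnar1, Jak1 and Ifnar2 differed by 0.33, 0.30 and 0.28. With upper-quartile scaling they differed by 0.11, 0.07 and 0.05. Stat2 was the 1 of these 7 genes with an unadjusted p under 0.05, against 6.46% of all tested genes.

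In the list of other sensors of double-stranded RNA and their regulators, 7 of 7 were higher in FFC (56.7% of all tested genes) and 0 passed, with a median of 1.63 (0.19 over all tested genes). Ddx58, which encodes the sensor RIG-I, had 49.9, 28.5, 31.9 and 32.0 FPKM in FFC 1 to FFC 4, against 7.26, 11.9, 14.2 and 10.1 FPKM in FF 1 to FF 4 (log2 difference 1.63 ± 0.62 SE, limma adjusted p = 0.712). Tlr3, an endosomal sensor, had 42.3, 29.03, 22.4 and 35.5 FPKM in FFC 1 to FFC 4, against 13.8, 5.87, 18.8 and 3.10 FPKM in FF 1 to FF 4 (1.77 ± 0.71 SE, limma adjusted p = 0.729). These were the 2 genes of the list with all FFC above all FF libraries, against 3.05% of all tested genes. An unadjusted p under 0.05 was found for 4 of the 7, against 6.46% of all tested genes. Ifih1, which encodes the sensor MDA5, differed by 2.37 ± 0.80 (SE, limma adjusted p = 0.712), and Dhx58, which encodes their regulator LGP2, by 1.65 ± 0.74 (SE, limma adjusted p = 0.756).

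Among 9 interferon-induced antiviral effectors, 8 were tested and 0 passed. The mean was higher in FFC for 7 and lower for 1 (6 and 2 with upper-quartile or quantile scaling, where Mx1 turned), against 56.7% higher over all tested genes, and the median was 0.83, against 0.19. Mx2, an antiviral GTPase whose gene is a polymorphic pseudogene in GENCODE M21, had 6.01, 8.50, 7.31 and 7.26 FPKM in FFC 1 to FFC 4, against 0.156, 0.0458, 2.40 and 0.0705 FPKM in FF 1 to FF 4. It was the 1 gene of this list with all FFC above all FF libraries, against 3.05% of all tested genes (log2 difference 2.51 ± 0.78 SE, limma adjusted p = 0.651). An unadjusted p under 0.05 was found for 2 of the 8, against 6.46% of all tested genes. Usp18, which removes the ubiquitin-like protein Isg15 from its targets, differed by 2.35 ± 0.90 (SE, limma adjusted p = 0.712), and Isg15 by 1.81 ± 0.92 (SE, limma adjusted p = 0.759). Ifit2, which encodes an RNA-binding effector, differed by 0.91 ± 1.06 (SE, limma adjusted p = 0.807). Cmpk2 was under the filter. Mx1 and Rsad2, chosen after their values were seen as the smallest differences of the list, were at 0.01 and -0.03, and Mx1 was at -0.17 with upper-quartile scaling.

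**Figure D4:**
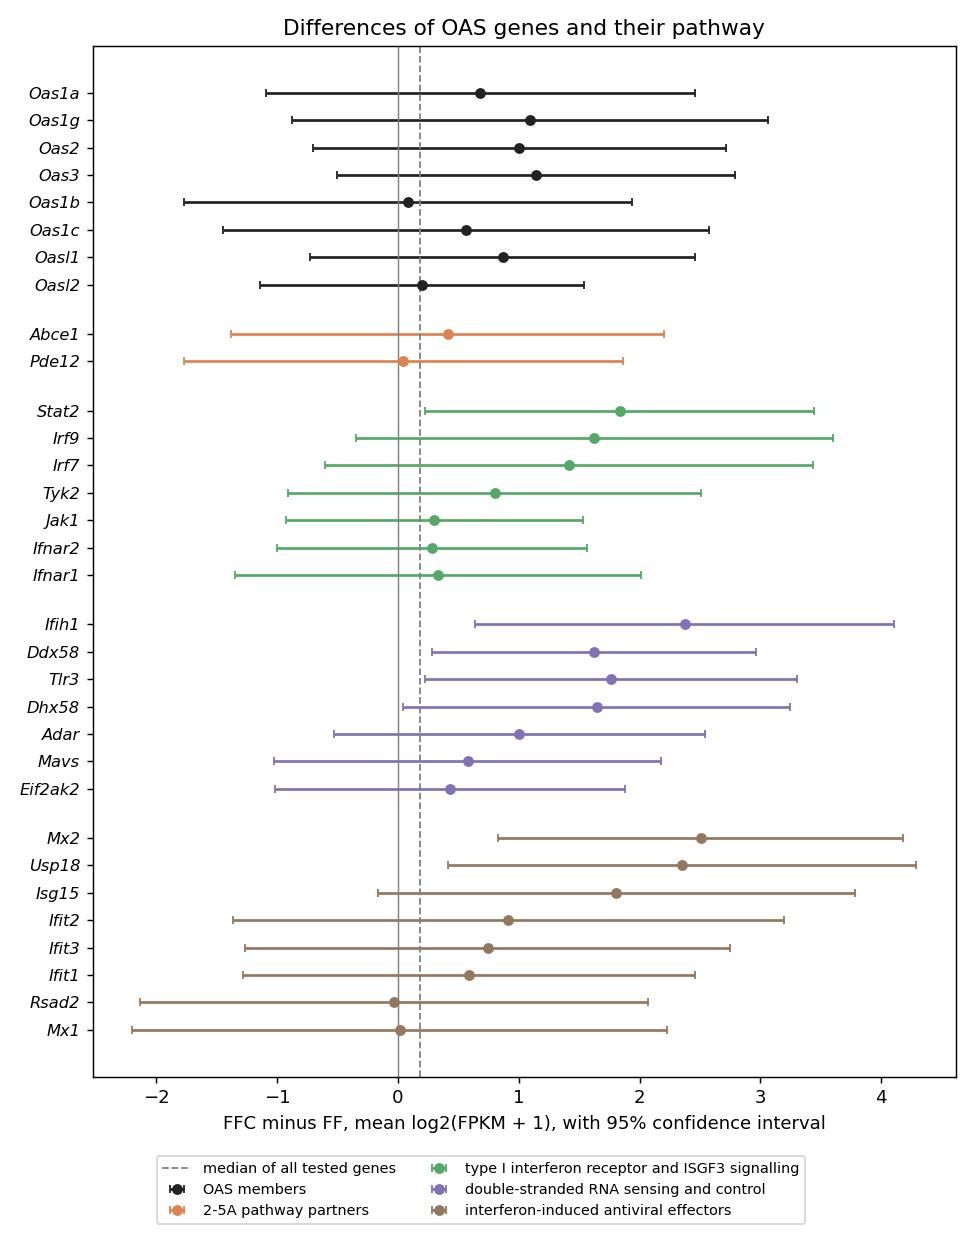
Difference of mean log2(FPKM + 1), FFC minus FF, with its 95% confidence interval from limma, for the OAS genes and 4 lists of related genes. The dashed line marks the median of all tested genes (0.19). The intervals of all 8 OAS genes include 0, and none of the genes shown passed the test after adjustment. The point of Oasl2 turned to -0.02 under upper-quartile scaling, and that of Oas1b to -0.59 without FFC 3.

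The gene whose library pattern was most like the mean log2(FPKM + 1) of the 8 members was Strap, among 8124 genes averaging 5 FPKM or more (Pearson r = 0.96 over the 8 libraries). Cant1 and Nbeal1 (r = 0.96 each), an immunoglobulin kappa variable segment (ENSMUSG00000076541, 0.95) and Birc2 (0.93) followed. These are the highest of many correlations over 8 points that share libraries, and are given as a description. Among the tested genes of the pathway lists, r was between -0.30 (Ifnar2) and 0.72 (Isg15). Of the nearest genes outside the OAS clusters, leaving out predicted genes and Riken clones, Ankrd13a, on the Oasl2 side, differed by 0.86 ± 0.73 (SE, limma adjusted p = 0.759), and Dtx1, next to Oas2, by -0.38 ± 0.86 (SE, limma adjusted p = 0.912). Rph3a, which follows Oas1a and Oas1d, was under the filter.

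Markers of other cells were measured beside the OAS genes. The 5 listed endothelial markers summed to 3.05 to 16.8 FPKM in FFC and 19.1 to 34.2 FPKM in FF. The sums did not overlap, but each of the 5 genes did, and different genes made up the sums, such as Pecam1 in FF 1 and Flt1 in FF 4. Cldn5 was listed at 0 in FFC 4 and FF 4. The 6 neutrophil markers summed to 4.40, 539, 824 and 2.83 FPKM in FFC 1 to FFC 4, against 2802, 240, 385 and 193 FPKM in FF 1 to FF 4. Camp was listed at 0 in FFC 1 and FFC 4, S100a8 in FFC 4, and Retnlg in FFC 4 and FF 3. The 5 T cell markers summed to 5.24 to 28.5 FPKM in FFC and 20.4 to 137 FPKM in FF, and Cd3d, Cd3g and Cd2 were each listed at 0 in some of them. Lck was the 1 T cell gene without overlap, at 0.386 to 5.96 FPKM in FFC and 14.6 to 79.7 FPKM in FF. The mean log2 value was lower in FFC for 4 of the 5 and higher for 1. The 5 erythroid markers summed to 24.4 to 59.5 FPKM in FFC and 52.1 to 208 FPKM in FF. The 4 border macrophage markers with values summed to 83.3 to 607 FPKM in FFC and 231 to 832 FPKM in FF. The 6 mural and fibroblast markers summed to 4.46 to 15.5 FPKM in FFC and 3.15 to 86.3 FPKM in FF. Not all lists were lower in FFC. The median log2 difference was 0.49 for oligodendrocytes (4 of 4 tested genes higher) and 0.15 for NK cells (2 of 3 higher), beside 0.19 over all tested genes. It was -0.29 for B cells, -0.45 for monocytes, -0.49 for T cells and -0.98 for oligodendrocyte precursors (1 gene tested). The lowest medians were -1.71 for neutrophils, -1.23 for mural cells and fibroblasts and -1.15 for erythroid cells. Endothelial and border macrophage markers were at -0.70 each. For the microglial markers the median was 0.31 (6 of 8 higher). FF 1, the highest library for Oas2 and Oasl2, had the highest sum in 9 of 12 lists of other cells, those of neutrophils, T cells, erythroid cells and border macrophages among them. FFC 1, the highest for Oas1a and Oas3, was the highest in 0 of the 12. The part of these cells in the OAS values was not tested.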

How the data were processed

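RNA of flow-sorted optic nerve microglia was sequenced in 8 libraries, 4 FFC and 4 FF, after cDNA amplification from little RNA, per the labels' protocols. The authors deposited 1 table of FPKM, in which fragments are scaled by transcript length and library. The build mm9 and the tools Cufflinks 2.0.2, Bowtie2 2.0.0, TopHat2 2.0.4 and CASAVA 1.8.2 stand in the submitters' processing notes, with settings and annotation both not given in the sources used here. Depth is unknown, so no counting interval is given, and a 0 may be a failed estimate.

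Of 37447 genes, 447 with a missing value (331 of them missing in all 8 libraries) were left out. Values were used as log2(FPKM + 1), a scale that understates changes of low genes, for 17753 genes that averaged 1 FPKM or more. All 8 members passed this filter. Limma 3.58.1 in R 4.3.3 (trended empirical Bayes, two-sided, Benjamini-Hochberg adjustment over all tested genes, threshold 0.05) tested FFC minus FF and, in a second model, the genotype by sex interaction. On simulated data with the spread of these libraries, it recovered 0.1%, 2.7%, 52% and 81.5% of genes changed by a log2 of 1, 2, 4 and 6, with 3.75 false calls per run (20 runs, 50 genes per size, from genes with a mean log2 value of at least 3). Oas1b, Oas1c, Oas1g and Oas3 lie under that mean, so these rates do not describe them. Positions in the deposited table start from 0 (21680 genes then have their GENCODE M21 length, 420 otherwise) and are printed from 1.

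The members and gene lists were chosen with earlier results of these data known. The genes named are the 8 members, Nf1, up to 4 genes per list with the smallest unadjusted p, the 5 most similar genes, leaving out symbols of predicted genes, and the neighbours of the clusters, and a few that this rule named are not reported here. Alternatives were other pseudocounts, filters, scalings, variances, weights and covariates, and leaving out libraries. Promoters were read from RefSeq (GRCm38.p6) with Python 3.11.15, which with numpy 2.4.6, pandas 2.3.3, scipy 1.17.1, matplotlib 3.10.9 and Biopython 1.88 did the rest.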

Additional observations from a re-analysis of the deposited data

Results flagged for a closer look

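In 16 groups of 4 values checked (the 8 members in each genotype, as log2(FPKM + 1)), 2 had a library far from the other 3. Oasl1 had 6.85 FPKM in FFC 4, against 23.6 to 29.1 FPKM in FFC 1 to FFC 3. Oasl2 had 19.2 FPKM in FFC 4, against 31.9 to 34.6 FPKM in the same 3 libraries. In both the low library was FFC 4, and the gap was 0.85 and 0.86 of the group's range on the log2 scale. Chance alone gives about 1 such group in 20. Without FFC 4 the log2 difference between FFC and FF was 1.32 for Oasl1 and 0.39 for Oasl2, and neither passed.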

How the results depend on the processing

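No member was called under any of the 20 alternatives for genotype or the 15 for the interaction. The median of the members stayed above 0, between 0.51 (without FF 2 and FF 4, and without FFC 1) and 1.17 (month as a covariate). It was 1.006 and 0.52 with pseudocounts of 0.1 and 5. The count of genes called over the whole table was 0, and 0 to 1 when a library was left out. There was 1 call without FFC 4 (adjusted p = 0.00177) and 1 without FF 1 (adjusted p = 0.000155), neither of a member. Oas1b turned to -0.10 with a pseudocount of 0.1 and -0.44 without FF 2 and FF 4, and ranged from -0.59 to 0.43 when 1 library was left out. Oasl2 turned to -0.022 with upper-quartile scaling, -0.0039 with quantile normalization and -0.20 without FF 2 and FF 4, and ranged from -0.062 to 0.44 when 1 library was left out. The cause was not tested. The other 6 members kept their sign in every setting that tested them, and Oas1b, Oas1c and Oas3 were not tested with a mean of at least 5 FPKM.

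With the replicate number as a block the median was 0.78 and 0 members and 0 genes were called. Same-numbered libraries showed no shared deviation (correlations of -0.04, 0.03, -0.01 and -0.05). Such correlations between libraries this variable cannot settle whether the numbers pair the samples, and the labels do not say. The unknown depth limits the low genes Oas1b, Oas1c and Oas3 most.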
